A study of Brassica rapa subsp. pekinensis with 4 samples.

Results

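Fatty acid desaturases were examined in the shoots of Chinese cabbage (*B. rapa*) after a long cold treatment. The genes were chosen by their Arabidopsis match in the deposited tables: every *B. rapa* gene whose match is 1 of 10 loci, namely FAD2 (AT3G12120), FAD3 (AT2G29980), FAD4 (AT4G27030), FAD5 (AT3G15850), FAD6 (AT4G30950), FAD7 (AT3G11170), FAD8 (AT5G05580), SSI2/FAB2 (AT2G43710), ADS1 (AT1G06080) and ADS2 (AT2G31360). This gave 24 genes of the 36698 listed, 15 for enzymes known from the plastid and 9 for enzymes known from the endoplasmic reticulum (ER). Of these, 23 had enough reads to be tested. The exception was Bra010417, a FAD4 copy with deposited counts of 2 to 3 in every library.

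The RNA-Seq libraries came from shoots of the early-bolting inbred line “4004”, with 2 libraries of plants vernalized for 35 days (35D Ver) and 2 libraries of plants that received 0 days of cold (0D Ver). According to the labels, the 35D Ver plants were 7 weeks old and had spent 35 days at 5 °C with 12 h of light, whereas the 0D Ver plants were 2 weeks old and had been kept at 23 °C with 16 h of light. Cold, age and day length differed together between the groups and cannot be told apart. Each library was a pool of shoots from several plants of 1 inbred line.

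Desaturases place double bonds in fatty acids, and membranes richer in such bonds stay fluid at low temperature. In plant leaves the work is divided between compartments. In the plastid, a soluble enzyme (SSI2/FAB2 in Arabidopsis) makes the first double bond of oleate while the chain is on acyl carrier protein, and membrane-bound enzymes add further bonds to the lipids of the thylakoid and envelope. In the ER, FAD2 and FAD3 act in turn on phosphatidylcholine. *B. rapa* carries several copies of many genes that are single in Arabidopsis, so a locus here often stands for 2 or 3 genes. The roles given below are those of the Arabidopsis enzymes.

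The deposited numbers of reads per gene summed to 22709649 to 23428420 in the 35D Ver libraries and 17221386 to 21315738 in the 0D Ver libraries. They were scaled between libraries by TMM (trimmed mean of M-values), and the scaled values are called normalized counts here. They are not divided by gene length, so only changes, and not levels, are compared between genes. Log2 fold changes are 35D Ver minus 0D Ver on the log2(normalized count + 1) scale, which understates the change of genes with few reads, and adjusted p-values are from limma over the 29691 genes tested. As a check of the labels, all 4 copies of FLC, the repressor of flowering that cold silences, were lower in 35D Ver, with log2 fold changes of -4.20 to -3.84, and both copies of VIN3, which cold induces, were higher, at 2.83 and 3.95. Of the marker lists, leaf mesophyll genes had 2 of 11 tested members higher and 0 lower, with a summed normalized count of 183119 to 253539 in 35D Ver and 202989 to 210671 in 0D Ver. Epidermis genes had 5 of 5 tested members lower, with sums of 3166 to 3203 in 35D Ver and 5766 to 5983 in 0D Ver. Root, flower and seed markers were near the detection limit, with no deposited count above 31, 26 and 18 for any of their genes. Of these, 3 of 4 tested flower genes were higher, with list sums of 77.5 to 86.1 in 35D Ver and 53.7 to 64.8 in 0D Ver. The 3 were copies of PI. The other, an AP3 copy, had 10.1 and 7.3 in 35D Ver against 16.7 and 12.2 in 0D Ver. Its log2 fold change of -0.67 did not pass the test (adjusted p = 0.146). For root, 1 of 2 tested genes was lower, and the 1 seed gene tested was lower. Of all genes tested, 20.1% were higher and 20.5% lower with an adjusted p below 0.05. The part of these marker shifts in the results below was not tested. In bulk shoots fewer cells of a type and less RNA per cell cannot be told apart.

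Some desaturase genes of the plastid and some of the ER were called higher in the 35D Ver shoots, whereas FAD2 was called lower. Of the 23 genes tested, 12 were higher with an adjusted p below 0.05, where 20.1% of all genes tested were, and 1 was lower, where 20.5% of all genes were. The remaining 10 did not pass the test. In 18 of the 23 genes the 35D Ver values did not overlap with the 0D Ver values and were the higher ones, which was the case for 36% of all genes tested. In 1 gene, FAD2, they did not overlap and were the lower ones, as in 37.1% of all genes, and in 4 genes the groups overlapped. The median log2 fold change of the 23 genes was 0.30, beside -0.01 over all genes tested. The changes were small in size: none reached an absolute log2 fold change of 1, so that 0 genes passed the criteria of the study (normalized count of at least 500 and absolute log2 fold change of at least 1 with adjusted p below 0.05), which 1.34% of all genes passed as higher and 1.75% as lower. With a count minimum of 50 in place of 500 it was again 0 of the 23, where 4.1% of all genes were higher and 5.56% lower. At an unadjusted p below 0.05, 15 of the 23 genes passed, beside 49.7% of all genes.

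The 2 libraries of 35D Ver differed from each other in 1 direction. All 23 genes had a higher normalized count in 35D Ver 1 than in 35D Ver 2, although only 51.7% of all genes tested did, and 5 of the 23 were higher in 0D Ver 1 than in 0D Ver 2, beside 49.5% of all genes. The summed leaf mesophyll markers were also higher in 35D Ver 1, at 253539, than in 35D Ver 2, at 183119. When each library was left out in turn, the number of desaturase genes called higher was 7 without 35D Ver 1, 9 without 35D Ver 2, 5 without 0D Ver 1 and 7 without 0D Ver 2. FAD2 remained the gene called lower in each case. These fits have fewer libraries, and over all genes tested fewer were called higher in each of them as well.

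**Figure D1:**
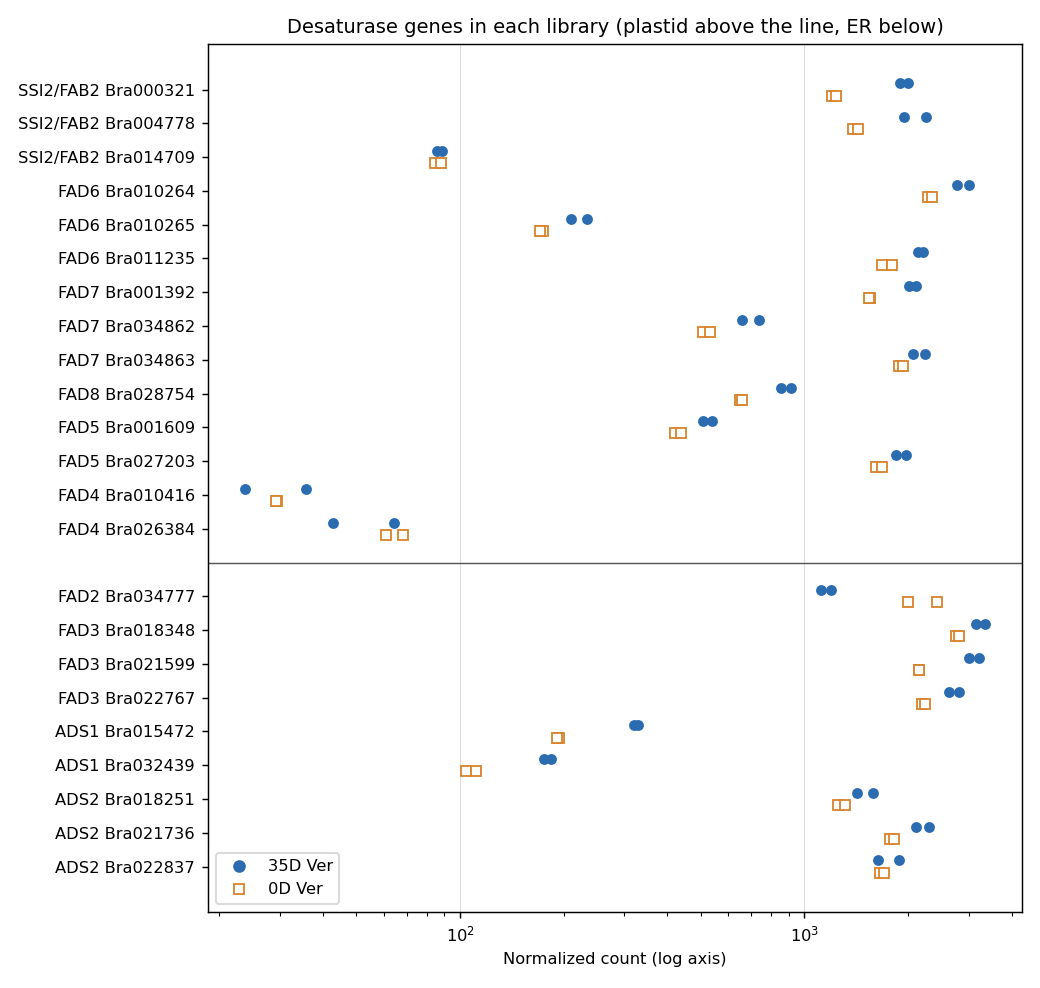
Normalized count on a log axis of the 23 desaturase genes tested, 1 row per gene, with filled circles for the 2 libraries of 35D Ver and open squares for the 2 libraries of 0D Ver, plastid enzymes above the line and endoplasmic reticulum (ER) enzymes below it. In 18 genes both circles lie to the right of both squares, in FAD2 they lie to the left, and in 4 genes circles and squares overlap.

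Among the plastid enzymes, 7 of 14 tested genes were higher and 0 lower, beside 20.1% and 20.5% of all genes. The median log2 fold change of the 14 was 0.32. None was lower at an unadjusted p below 0.05 or with limma-voom either. The number higher was 4 without 35D Ver 1, 6 without 35D Ver 2, 2 without 0D Ver 1 and 4 without 0D Ver 2. SSI2/FAB2, the stearoyl-acyl carrier protein desaturase that supplies oleate to the whole cell, stood at the head of the pathway. Bra000321 had normalized counts of 1993 and 1896 in 35D Ver, against 1198 and 1235 in 0D Ver. Bra004778 had 2248 and 1942 in 35D Ver, against 1387 and 1433 in 0D Ver. In both copies the groups were well separated, with log2 fold changes of 0.68 ± 0.10 for Bra000321 (SE, adjusted p = 0.0012) and 0.57 ± 0.11 for Bra004778 (SE, adjusted p = 0.0045). The third copy, Bra014709, had 88.8 and 85.7 in 35D Ver and 84.4 and 87.9 in 0D Ver. Its groups overlapped and its log2 fold change was 0.02, with a 95% interval of -0.36 to 0.40.

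FAD6, the plastid omega-6 desaturase that turns oleate into linoleate on chloroplast lipids, has 3 copies here. Bra010264 had 2993 and 2765 in 35D Ver, against 2281 and 2345 in 0D Ver. Bra011235 had 2212 and 2141 in 35D Ver, against 1676 and 1799 in 0D Ver. Both were higher, with log2 fold changes of 0.31 ± 0.10 (SE, adjusted p = 0.0395) and 0.33 ± 0.10 (SE, adjusted p = 0.0334). Bra010265, whose identifier follows that of Bra010264, had fewer reads, with 234 and 209.7 in 35D Ver and 174 and 171 in 0D Ver, and its log2 fold change of 0.36 ± 0.13 (SE) did not pass the test (adjusted p = 0.0607). The 2 calls were close to the threshold. For Bra010264 the adjusted p was 0.132 without 35D Ver 1, 0.169 without 0D Ver 1 and 0.110 without 0D Ver 2, and for Bra011235 it was 0.0694 to 0.182 without any 1 of the 4 libraries.

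FAD7 and FAD8 are the plastid omega-3 desaturases, which make trienoic fatty acids of the thylakoid lipids; FAD8 is known in Arabidopsis as the form active at low temperature. FAD8 (AT5G05580) matched 1 gene, Bra028754, with 914 and 854 in 35D Ver against 648 and 658 in 0D Ver. The groups were apart by more than the spread within either, and the log2 fold change was 0.44 ± 0.10 (SE, adjusted p = 0.0110). Its adjusted p was 0.0562 without 0D Ver 1. Of the 3 copies of FAD7, Bra001392 had 2107 and 2015 in 35D Ver against 1547 and 1543 in 0D Ver. Bra034862 had 737 and 660.0 in 35D Ver against 506 and 533 in 0D Ver. Both were higher, by 0.41 ± 0.10 (SE, adjusted p = 0.0112) and 0.42 ± 0.11 (SE, adjusted p = 0.0169) on the log2 scale. Each call was lost without certain libraries, Bra001392 without 0D Ver 1 (adjusted p = 0.0556) or 0D Ver 2 (0.0529), and Bra034862 without 35D Ver 1 (0.0718) or 0D Ver 1 (0.0889). Bra034863, which follows Bra034862 in the numbering, had 2241 and 2071 in 35D Ver and 1881 and 1936 in 0D Ver, with a log2 fold change of 0.18 and a 95% interval of -0.06 to 0.41 (adjusted p = 0.206).

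The desaturases that act on palmitate in the plastid gave no call with limma or limma-voom, and 1 of the 4 genes tested had an unadjusted p below 0.05. FAD5 introduces a double bond into palmitate of monogalactosyldiacylglycerol. Its copy Bra001609 had 540.4 and 508 in 35D Ver against 420.0 and 438 in 0D Ver, a log2 fold change of 0.29 ± 0.11 (SE, adjusted p = 0.0663). Bra027203 had 1967 and 1843 in 35D Ver against 1613 and 1676 in 0D Ver, a log2 fold change of 0.21 ± 0.10 (SE, adjusted p = 0.130). Both copies had their 35D Ver libraries above their 0D Ver libraries without passing the test. FAD4, which makes the trans double bond in the palmitate of phosphatidylglycerol, was covered by few reads. Bra026384 had 64.1 and 42.8 in 35D Ver and 60.8 and 68.3 in 0D Ver, and Bra010416 had 35.7 and 23.7 in 35D Ver and 29.4 and 29.3 in 0D Ver. In both genes the groups overlapped, and the 95% intervals of the log2 fold change, -0.83 to 0.24 and -0.63 to 0.60, were the widest of the 23 genes.

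Among the ER enzymes, 5 of 9 tested genes were higher and 1 lower, beside 20.1% and 20.5% of all genes. The median log2 fold change of the 9 was 0.29. The number higher was 3 without any 1 of the 4 libraries. The gene that was lower was FAD2, the omega-6 desaturase that converts oleate to linoleate on phosphatidylcholine. FAD2 (AT3G12120) matched 1 gene, Bra034777, with 1194 and 1119 in 35D Ver against 2432 and 1993 in 0D Ver. Every 35D Ver value was below every 0D Ver value, and the mean was 0.523 of that in 0D Ver, with a log2 fold change of -0.93 ± 0.12 (SE, 95% interval -1.21 to -0.65, adjusted p = 0.0007). The 0D Ver libraries differed from each other more than the 35D Ver libraries did, and without any 1 of the 4 libraries the log2 fold change stayed between -1.07 and -0.80 with the call kept. The epidermis marker genes moved in the same direction in all 5 tested members, with log2 fold changes of -2.47 to -0.35, and their part in the value of FAD2 was not tested.

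FAD3, the ER omega-3 desaturase that follows FAD2 and makes linolenate, had 2 of 3 copies higher. Its copy Bra021599 had 3207 and 2996 in 35D Ver against 2145 and 2147 in 0D Ver, and Bra022767 had 2800.1 and 2630.0 in 35D Ver against 2192 and 2241 in 0D Ver. Bra021599 was higher by 0.53 ± 0.10 on the log2 scale (SE, adjusted p = 0.0041), a call that was kept without any 1 library. Bra022767 was higher by 0.29 ± 0.10 (SE, adjusted p = 0.0487), just inside the threshold, and its adjusted p was 0.0703 to 0.190 without any 1 of the 4 libraries. The third copy, Bra018348, had 3351 and 3137 in 35D Ver against 2756 and 2816 in 0D Ver, with a log2 fold change of 0.22 and a 95% interval of -0.02 to 0.45 (adjusted p = 0.123). Bra034777 and the 3 FAD3 copies thus had log2 fold changes of opposite sign in the same libraries, with 95% intervals that do not overlap between FAD2 and any FAD3 copy. The difference between the genes was not tested.

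ADS1 and ADS2 are delta-9 acyl-lipid desaturases of the ER, and ADS2 is known from cold tolerance in Arabidopsis. Both copies of ADS1 were higher in 35D Ver, and they had the highest log2 fold changes among the 23 genes. Bra015472 had 329 and 321 in 35D Ver against 194 and 192 in 0D Ver, and Bra032439 had 184 and 175 in 35D Ver against 104 and 111 in 0D Ver. The replicates of each group lay close together, and the log2 fold changes were 0.75 ± 0.12 (SE, adjusted p = 0.0017) and 0.73 ± 0.15 (SE, adjusted p = 0.0046), that is 1.68-fold and 1.67-fold in the mean normalized count. Of the 3 ADS2 copies, Bra021736 had 2303 and 2104 in 35D Ver against 1769 and 1814 in 0D Ver and was higher by 0.30 ± 0.10 on the log2 scale (SE, adjusted p = 0.0492), although its adjusted p was 0.0572 to 0.188 without any 1 of the 4 libraries. Bra018251 had 1580.0 and 1416 in 35D Ver against 1254 and 1309.6 in 0D Ver, a log2 fold change of 0.22 (adjusted p = 0.130). Bra022837 had 1886 and 1637 in 35D Ver and 1653 and 1699 in 0D Ver, so that its groups overlapped, with a log2 fold change of 0.07 and a 95% interval of -0.18 to 0.32.

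**Figure D2:**
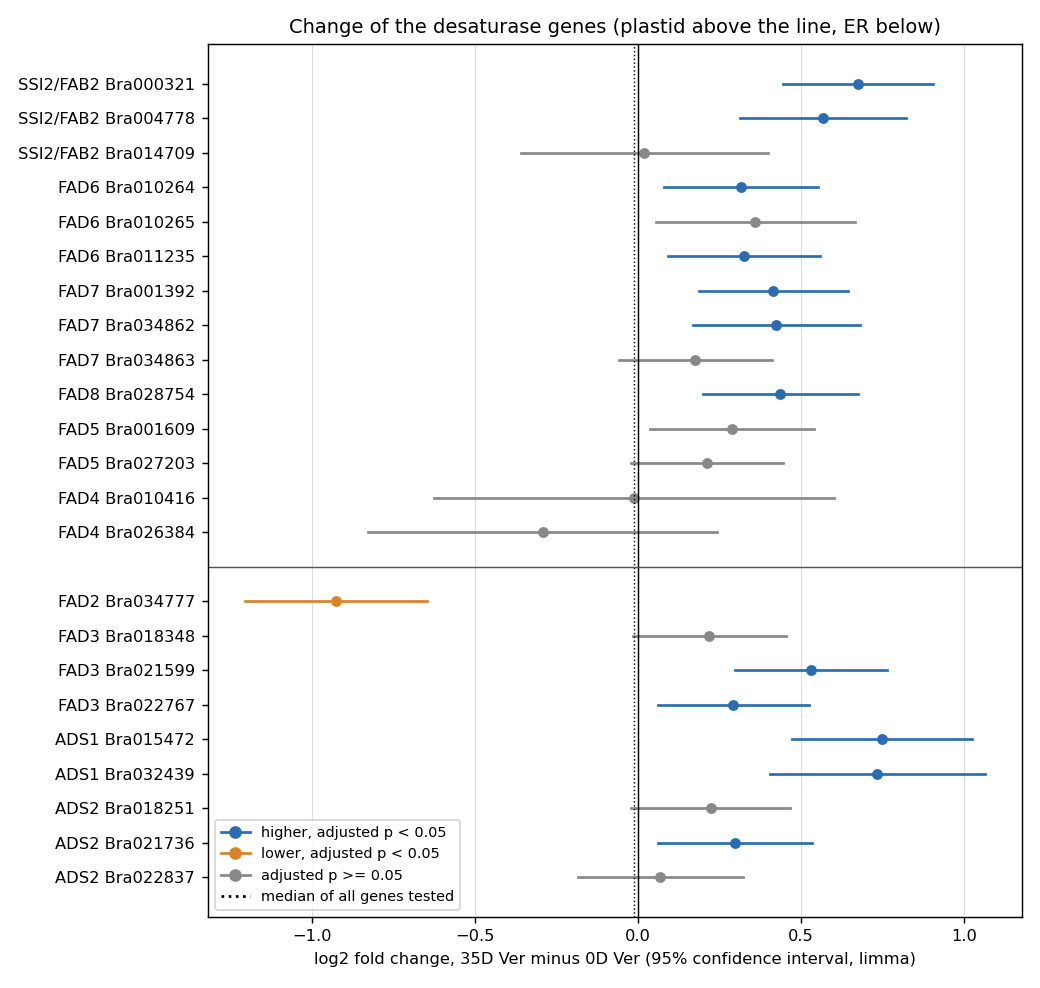
Log2 fold change of each desaturase gene tested, 35D Ver minus 0D Ver, with bars for the 95% confidence interval from limma on 2 libraries per condition and colours for the call at adjusted p below 0.05. The point of FAD2 at -0.93 lies far to the left of the others, the called higher genes lie between 0.29 and 0.75, and the dotted line marks the median of all genes tested at -0.01.

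Grouped by the bond they make, the omega-3 desaturases (FAD3, FAD7 and FAD8) had 5 of 7 tested genes higher and 0 lower. Their log2 fold changes were 0.18 to 0.53. Beside these and the counts that follow, 20.1% of all genes tested were higher and 20.5% lower. The delta-9 desaturases (SSI2/FAB2, ADS1 and ADS2) had 5 of 8 higher and 0 lower, with log2 fold changes of 0.02 to 0.75. The AAD and ADS1-like genes described below are not in this count. Of these, 1 of 4 AAD and 2 of 7 ADS1-like genes were lower, and 0 of either passed as higher. The omega-6 desaturases were divided by compartment, with 2 of the 3 plastid FAD6 copies higher and the ER gene FAD2 lower. For the omega-3 and the delta-9 genes of the 10 loci, 0 were also lower at an unadjusted p below 0.05 and with limma-voom. The palmitate desaturases FAD4 and FAD5 gave no call, as described above. No test compared these groups with each other. Plastid and ER genes gave close medians, 0.32 and 0.29, and FAD2 alone set the lower end of the ER range.

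How the authors assigned reads that match more than 1 copy is not given in the sources used here, so the division of reads between near-identical copies is uncertain. If each read was counted once, the sums over all copies of a locus do not depend on how reads were divided among them. Whether each was counted once is not known. For these sums, 6 of the 10 loci were higher in 35D Ver, where 19.4% of the 16976 Arabidopsis matches tested in the same way were, and 1 was lower, where 21% were. The groups did not overlap in 9 loci, of which 8 had the 35D Ver values above, as in 35.2% of all matches, and 1 had them below, as in 37.7%. ADS1 had the highest log2 fold change of the 10 sums at 0.75 ± 0.11 (SE, adjusted p = 0.0016), with 512.9 and 496 normalized counts in 35D Ver against 298 and 303 in 0D Ver. SSI2/FAB2 was higher by 0.60 ± 0.10 (SE, adjusted p = 0.0028), with 4330 and 3924 in 35D Ver against 2670.0 and 2756 in 0D Ver. FAD8 was higher by 0.44, FAD3 by 0.34, FAD6 by 0.32 and FAD7 by 0.31, with adjusted p-values of 0.0127, 0.0273, 0.0337 and 0.0396 in that order. FAD2 was lower by the same amount as its only copy (adjusted p = 0.0009). FAD5 at 0.23 (adjusted p = 0.108), ADS2 at 0.20 (adjusted p = 0.165) and FAD4 at -0.21 (adjusted p = 0.480) did not pass. The calls of ADS1, SSI2/FAB2 and FAD2 were kept without any 1 library. FAD6 was not called without any 1 of the 4 libraries (adjusted p of 0.0554 to 0.163), and neither was FAD7 (0.0603 to 0.161). FAD3 was not called without 35D Ver 1 (0.0812), 0D Ver 1 (0.126) or 0D Ver 2 (0.0918), and FAD8 was not called without 0D Ver 1 (0.0597).

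Copies of a locus did not always change alike. For every pair of tested copies with 1 Arabidopsis match, the log2 ratio of the copies was compared between conditions, which tests the difference of their changes directly. Of the 18 pairs among the desaturases, 8 differed with an adjusted p below 0.05, where 22.9% of the 19670 pairs in the whole table did, and 9 had an unadjusted p below 0.05. The pair that was called in all 11 alternatives planned for it was the FAD3 pair Bra018348 and Bra021599. The log2 ratio of Bra018348 to Bra021599 was 0.06 and 0.07 in 35D Ver, against 0.36 and 0.39 in 0D Ver, a difference of -0.31 ± 0.02 (SE, adjusted p = 0.0027), so that Bra021599 gained on Bra018348. Bra021599 also gained on Bra022767, with log2 ratios of 0.20 and 0.19 in 35D Ver against -0.03 and -0.06 in 0D Ver (adjusted p = 0.0052), a call lost without 0D Ver 2 (adjusted p = 0.0541).

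In FAD7, Bra001392 and Bra034862 rose against Bra034863 by 0.24 ± 0.03 (SE, adjusted p = 0.0113) and 0.25 ± 0.04 (SE, adjusted p = 0.0204) on the log2 scale. In SSI2/FAB2, Bra000321 and Bra004778 rose against Bra014709 by 0.66 ± 0.10 (SE, adjusted p = 0.0135) and 0.55 ± 0.11 (SE, adjusted p = 0.0289). In ADS2, Bra021736 and Bra018251 rose against Bra022837 by 0.23 ± 0.03 (SE, adjusted p = 0.0141) and 0.15 ± 0.03 (SE, adjusted p = 0.0297). The difference tested is that between the log2 fold changes of the copies. The copy left behind in each of these loci is therefore by construction the one with the smallest log2 fold change. Of these 6 calls, 5 were lost without any 1 of the 4 libraries, and that of Bra021736 was kept without 35D Ver 1 (adjusted p = 0.0430). When each of the 4 libraries was left out in turn, the adjusted p was 0.0563 to 0.0819 for Bra001392 and 0.0759 to 0.110 for Bra034862 against Bra034863. Against Bra014709 it was 0.0705 to 0.0871 for Bra000321 and 0.0750 to 0.138 for Bra004778. Against Bra022837 it was 0.0863 to 0.140 for Bra018251, and for Bra021736 it was 0.0601 without 35D Ver 2, 0.0951 without 0D Ver 1 and 0.101 without 0D Ver 2. The other 10 pairs gave no call. The difference was 0.01 with a 95% interval of -0.21 to 0.24 between the ADS1 copies, and -0.01 with an interval of -0.11 to 0.09 between the FAD6 copies Bra010264 and Bra011235.

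**Figure D3:**
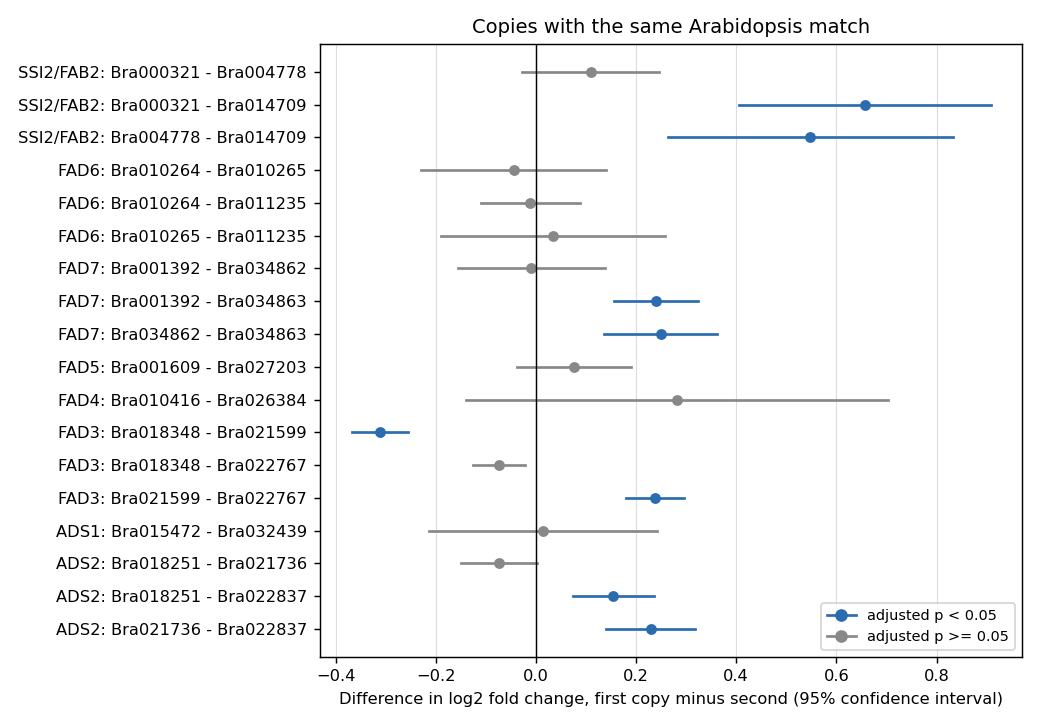
Difference in log2 fold change between copies with the same Arabidopsis match, first copy minus second, for the 18 pairs of desaturase genes, with bars for the 95% confidence interval and colour for adjusted p below 0.05. The FAD3 pair Bra018348 and Bra021599 lies at -0.31 with a narrow interval, the pairs with Bra014709 lie at 0.55 and 0.66, and the 3 FAD6 pairs lie around 0.

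Other genes of lipid metabolism were counted from lists of textbook pathways, and none of these lists had a median as high as that of the desaturases. Other desaturases had 2 of 15 tested genes higher and 3 lower, beside 20.1% and 20.5% of all genes, with a median log2 fold change of -0.16. These 15 were 4 sphingolipid desaturases (SLD), 7 ADS1-like genes and 4 acyl carrier protein desaturases (AAD) of the same soluble class as SSI2/FAB2. The AAD genes are named after their values were seen. Of these 1 was lower, the AAD5 copy Bra021427, with 850.0 and 832 in 35D Ver against 1084 and 1114 in 0D Ver (log2 fold change -0.39 ± 0.10, SE, adjusted p = 0.0162). The AAD5 copies Bra001057 and Bra008631 also had both 35D Ver libraries below both 0D Ver libraries. Their log2 fold changes of -0.28 and -0.38 did not pass the test (adjusted p = 0.0558 and 0.0545). The AAD3 copy Bra008632 had its 35D Ver libraries above, at 0.39, and did not pass either (adjusted p = 0.0529). The genes of this list called higher were 2 copies of SLD1, a sphingolipid long-chain base desaturase. Their log2 fold changes were 0.64 ± 0.12 for Bra003457 (SE, adjusted p = 0.0040) and 0.43 ± 0.12 for Bra007615 (SE, adjusted p = 0.0237). Of the 4 tested genes matched to AT1G06090, the locus that follows ADS1 in the Arabidopsis numbering, 2 were lower. Bra015473, which follows the ADS1 copy Bra015472 in the numbering, had 15.6 and 17.3 in 35D Ver against 38.3 and 36.6 in 0D Ver, a log2 fold change of -1.14 ± 0.25 (SE, adjusted p = 0.0068). Bra030638 had 15.6 and 17.3 in 35D Ver against 55.9 and 48.8 in 0D Ver, a log2 fold change of -1.61 ± 0.24 (SE, adjusted p = 0.0011). Both had a sign opposite to that of the ADS1 copies, on few reads. Bra015473 and Bra030638 had the same value as each other in each 35D Ver library, and whether they share reads was not tested.

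Plastid fatty acid synthesis makes the chains the desaturases work on. It had 3 of 35 tested genes higher and 6 lower, beside 20.1% and 20.5% of all genes, with a median of -0.03. ACP4, an acyl carrier protein of leaves, was higher in 2 copies, by 0.65 ± 0.11 for Bra013859 (SE, adjusted p = 0.0018) and 0.50 ± 0.11 for Bra010475 (SE, adjusted p = 0.0076). FATA1, the thioesterase that releases oleate from acyl carrier protein, was lower in Bra015099, with 92.5 and 117 in 35D Ver against 219 and 219.7 in 0D Ver (log2 fold change -1.07 ± 0.16, SE, adjusted p = 0.0012). BCCP2, a subunit of the plastid acetyl-CoA carboxylase, was lower in Bra008694, with 47.6 and 41.0 in 35D Ver against 94.2 and 85.4 in 0D Ver (adjusted p = 0.0038).

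Plastid glycerolipid synthesis had 2 of 17 tested genes higher and 4 lower, beside 20.1% and 20.5% of all genes, with a median of 0.05. The higher ones were the copies of SFR2, a galactolipid-remodelling enzyme needed for freezing tolerance in Arabidopsis. Bra029584 had 2071 and 1669 in 35D Ver against 620.1 and 629.8 in 0D Ver, and Bra040275 had 397 and 318 in 35D Ver against 113 and 115 in 0D Ver. Their log2 fold changes of 1.57 ± 0.13 (SE, adjusted p = 5.3e-05) and 1.63 ± 0.15 (SE, adjusted p = 0.0001) were above those of all 23 desaturase genes. ATS1/ACT1, the plastid glycerol-3-phosphate acyltransferase, was lower in Bra035512 at -0.43 ± 0.10 (SE, adjusted p = 0.0107), and SQD2, which makes sulfolipid, was lower in Bra005694 at -0.37 ± 0.12 (SE, adjusted p = 0.0334).

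In ER glycerolipid synthesis, 3 of 14 tested genes were higher and 3 lower, with a median of 0.08. These shares were near those of all genes, 20.1% higher and 20.5% lower. GPAT9, the first acyltransferase of the ER pathway, was higher in Bra011598 by 0.66 ± 0.13 (SE, adjusted p = 0.0044), and AAPT2, which makes phosphatidylcholine and phosphatidylethanolamine, was higher in Bra025147 by 0.60 ± 0.14 (SE, adjusted p = 0.0087). ROD1/PDCT moves oleate into phosphatidylcholine, the substrate of FAD2. All 3 of its copies tested were lower, of which the 2 with the largest decreases are given, with 77.9 and 58.3 in 35D Ver against 166 and 173 in 0D Ver for Bra001607, and 51.3 and 39.2 in 35D Ver against 100.1 and 89.1 in 0D Ver for Bra027205. The groups of these copies were apart, with log2 fold changes of -1.32 ± 0.18 (SE, adjusted p = 0.0009) and -1.06 ± 0.21 (SE, adjusted p = 0.0042). Of the genes for lipid transport into plastids, 0 of 5 tested were called in either direction by limma or limma-voom, 1 had an unadjusted p below 0.05, and the median was -0.13.

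Electron donors are the ferredoxins of plastid desaturases and the cytochrome b5 and its reductase of ER desaturases. Of 17 tested genes, 0 were higher and 8 lower, beside 20.1% and 20.5% of all genes, with a median of -0.27. The count higher was also 0 at an unadjusted p below 0.05 and with limma-voom. The 8 lower genes were all for cytochrome b5 (CB5-B and CB5-C) or its reductase (CBR1). The ferredoxin genes FD1 and FD2 gave no call, with log2 fold changes of 0.02 to 0.16. The genes of CB5-A, CB5-D and CB5-E also gave no call. The largest decreases were in CB5-C, a cytochrome b5 isoform. Bra039268 had 30.2 and 21.9 in 35D Ver against 157 and 214 in 0D Ver, and Bra004518 had 55.0 and 33.7 in 35D Ver against 229.6 and 315 in 0D Ver. These were log2 fold changes of -2.78 ± 0.23 (SE, adjusted p = 6.9e-05) and -2.61 ± 0.25 (SE, adjusted p = 0.0002). Over all 6 lipid lists, 10 of 103 tested genes were higher (9.71%, beside 20.1% of all genes) and 24 were lower (23.3%, beside 20.5% of all genes), so that the share lower was near that of all genes. The number lower was 19 without 35D Ver 1, 14 without 35D Ver 2, 16 without 0D Ver 1 and 15 without 0D Ver 2.

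**Figure D4:**
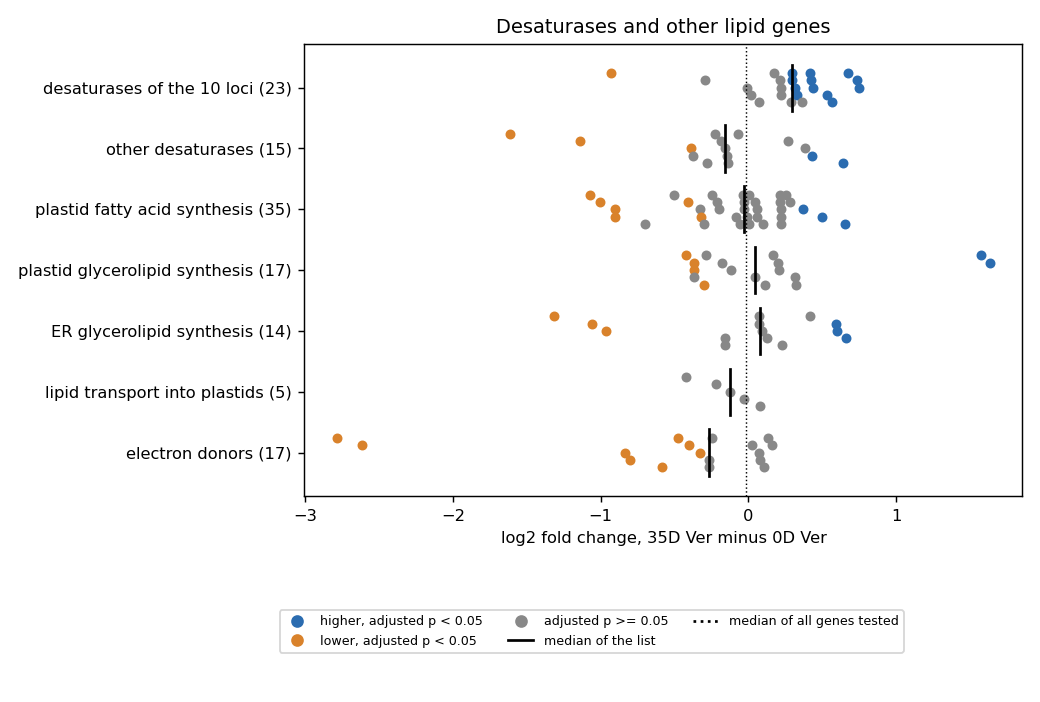
Log2 fold change, 35D Ver minus 0D Ver, of the desaturases of the 10 loci and of the genes of 6 other lipid lists, 1 point per gene tested with the number of genes in brackets, coloured by the call at adjusted p below 0.05. The black bar of the desaturases stands at 0.30, the bars of the other lists stand between -0.27 and 0.08, and the 2 points on the far right are the SFR2 copies.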

How the data were processed

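Shoot RNA was poly(A)-selected and sequenced by the authors, who used SolexaQA for trimming and Bowtie2 for mapping to coding sequences from BRAD, and deposited 1 whole number of reads (count) per gene and library. The authors wrote these counts with commas between groups of digits, and these were removed here. The lowest value was 1 in every library, so 1 may have been added to each count. The cells with commas do not parse as plain numbers, so the values are recorded as another unit than counts. Without the commas all were whole numbers, so a count model was possible but was not used. Instead, limma was used on a log2 scale computed here from the deposited counts. The labels name 2 library kits, 1 of which keeps strand, without saying which library had which, and whether counting used strand is not given in the sources used here.

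Genes with at least 10 scaled counts in at least 2 libraries and 15 in total were kept (29691 of 36698). TMM size factors (trims of 0.3 and 0.05) were computed in R 4.3.3, and limma 3.58.1 was fitted with condition as the only term, a variance trend and robust moderation, followed by Benjamini-Hochberg adjustment over all genes, over all 16976 locus sums or over all 19670 copy pairs. The statistics were tested on simulated data with absolute log2 changes of 1 and 2. Changes of 1 were recovered in 99 of 100 genes and in 98 of 134 copy pairs. Smaller changes, such as those of the desaturases, were not simulated. Figures were drawn with matplotlib 3.10.9. Pools of plants are called biological replicates in the study (n = 2 per condition), while the labels do not say so, so p-values measure the spread between these libraries. With 2 against 2, an exact permutation test cannot go below p = 0.333. Replicate pairs differed by more than counting noise, with a median per-gene chi-square of 1.33 in 35D Ver and 1.11 in 0D Ver, where 0.455 is the median under noise alone.

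The members and lists were chosen with earlier results of these data known, and list counts are descriptions without a test. Every desaturase gene of the 10 loci is named. From each other lipid list up to 2 genes in each direction are named. They have the largest absolute log2 fold change among genes with adjusted p below 0.05 and groups that do not overlap. The AAD genes, the ferredoxin values and the AP3 copy were added outside this rule, after the values were seen. Alternatives were median-of-ratios and total count scaling, no filter or at least 10 counts in every library, pseudocounts of 0.1 and 10, limma-voom, a replicate block, leaving out each library, the criteria of the study, these with a count of at least 50, and an adjusted p below 0.01. Sequences of the genes were not used here.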

Additional observations from a re-analysis of the deposited data

How the results depend on the processing

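With 2 libraries per condition, small changes sit near the threshold. Of the 13 desaturase genes called, 6 kept their call in all 12 alternatives of scaling, filter, pseudocount, model, replicate block and left-out library: Bra034777 (FAD2), Bra021599 (FAD3), Bra000321 and Bra004778 (SSI2/FAB2), and Bra015472 and Bra032439 (ADS1). The other 7 lost it in at least 1. Scaling, filter, pseudocount and limma-voom left 10 to 12 genes called higher. The criteria of the study gave 0 higher and 0 lower, also with a count of at least 50, and an adjusted p below 0.01 left 5 higher.

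Leaving out 1 library gave 5 to 9 genes called higher, 2 to 4 locus sums higher, 1 to 3 copy pairs, and 14 to 19 lipid list genes lower. Over all genes it gave 3871 to 4880 lower. These fits have fewer libraries, and the lone library of a group is assumed to vary like the others. Among desaturase genes, sums and copy pairs, signs turned only where the value was not called. Over the left-out libraries the log2 fold change was -0.27 to 0.28 for Bra010416 (0.0094 with no filter), -0.021 to 0.055 for Bra014709, -0.0081 to 0.18 for Bra022837, -0.55 to 0.0020 for Bra026384 and -0.46 to 0.075 for the FAD4 sum. The difference between copies was -0.043 to 0.071 for Bra015472 and Bra032439, -0.057 to 0.038 for Bra001392 and Bra034862, -0.045 to 0.023 for Bra010264 and Bra011235, and -0.029 to 0.097 for Bra010265 and Bra011235.

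Libraries with the same replicate number did not deviate together (correlation across genes -0.17), so the numbers do not pair them. With the number as a block, 8 genes and 3 locus sums were higher and 3 copy pairs were called. Crossing the numbers, a pairing added after seeing the data, gave counts that differ again: 15 genes and 7 locus sums were higher and 6 copy pairs were called. Subtracting 1 from each deposited number, also added after seeing the data, left 11 genes higher. limma-voom was not run for copy pairs, whose log ratios it cannot take.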
